A study of Mus musculus with 18 samples.

Results

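The libraries described here are the 3 taken from mouse erythroleukemic cells given doxycycline and DMSO and the 3 taken from the same cells given DMSO without doxycycline. They are 6 of the 18 libraries of the series, chosen by their labels alone, and all genes of their count table were examined. The cells are a single line, #763, labelled TgSpi1 and described as leukemic erythroid cells from bone marrow, grown in erythropoietin (EPO). Both groups carry a hairpin RNA against Spi1 that doxycycline switches on, and doxycycline was given for 48 h. DMSO is the vehicle of entinostat, an inhibitor of class I histone deacetylases that other libraries of the same table received at 3 µM for 6 h. The comparison asks how the transcriptome of vehicle-treated cells differs once the hairpin is on. No group carried a control hairpin, so the drug itself and the loss of Spi1 RNA cannot be told apart. Reads of the transgene and of the cells' own Spi1 cannot be told apart either.

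Spi1 encodes PU.1, an ETS family transcription factor that binds purine-rich sites around a GGAA core and is needed for macrophages, neutrophils and B cells. PU.1 normally declines as a progenitor enters the red cell path, and it binds GATA1, the main activator of erythroid genes. Forced PU.1 expression in erythroid progenitors blocks their maturation, a known route to mouse erythroleukemia.

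Library totals were 47.3 to 48.8 M counts without doxycycline and 46.5 to 48.9 M with it. Levels are given as CPM, counts per M counts of a library after TMM scaling, and they are compared within a gene only. The libraries held erythroid RNA: of 12 erythroid markers, 11 were above 1 CPM in all 6 libraries, and their sum was 3483 to 3642 CPM without doxycycline and 4683 to 5626 CPM with it, of which Tfrc alone made 2459 to 2859 and 3526 to 4161 CPM. The first doxycycline library stood apart from the other 2 of its group. It correlated with them at 0.979 and 0.980 across genes, whereas they correlated with each other at 0.9946, and 17.3% of 9396 genes compared lay at least 2-fold from the mean of its group mates, against 0.0426 to 0.649% in the other 5 libraries. Its departure followed transcript length. Transcripts under 1000 nt were higher in it by a median of 1.08 on the log2 scale (528 genes), and those of 6000 nt or more stood at a median of -0.69 (1265 genes). The first library without doxycycline leaned the same way to a smaller extent, with medians of 0.21 and -0.18. Counts over all genes and over most gene lists below are therefore given with and without the first doxycycline library. Without that library the change with doxycycline itself followed length. Its median log2 fold change was -0.342 under 500 nt and 0.359 at 6000 nt or more, against 0.158 and 0.189 with all libraries. The part of this trend in calls gained without that library was not tested.

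**Figure D1:**
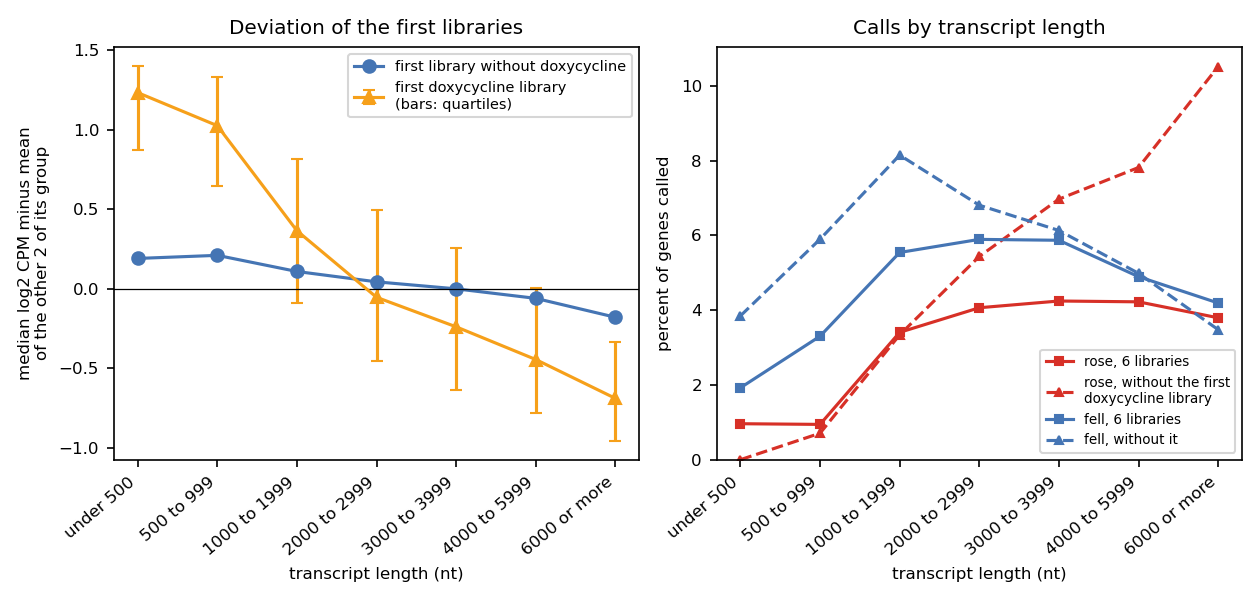
Left, median log2 CPM of the first library of each DMSO group minus the mean of its 2 group mates, by transcript length in nt (bars, quartiles over genes). Right, percent of genes of each length called with doxycycline in all 6 libraries (solid) or without the first doxycycline library (dashed); among the shortest transcripts 0.962% rose with all libraries and 0% without that one, and among the longest 3.79% and 10.5%.

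Spi1, which the hairpin targets, is given before other genes. Spi1 (ENSMUSG00000002111, mm10 chromosome 2, 91082390 to 91115756) measured 199.6, 258.7 and 251.5 CPM in the untreated libraries and 59.5, 126 and 105 CPM in the treated. The groups did not overlap, and the lowest value was that of the first doxycycline library. The log2 fold change was -1.29 ± 0.33 (standard error, 3 libraries a group, edgeR quasi-likelihood adjusted p = 0.0264), so a level of 0.410 of the untreated one remained. The call ended when the first (-1.03, adjusted p = 0.0507) or the third doxycycline library (-1.35, 0.0688) or the second (-1.22, 0.0900) or the third untreated library (-1.24, 0.0903) was left out. With the replicate numbers as a block the value was -1.36.

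With doxycycline, 9 of 16 genes of heme synthesis and 10 of 22 of the red cell surface rose. Falls were called in 15 of 23 immune receptor adaptors and kinases. They were also called in 12 of 16 genes of the phagocyte oxidase, granules and related membrane proteins. Most erythroid transcription factors and globin genes, and all 14 iron genes, did not pass. The lists and their members were chosen with earlier results of these data known. Member counts here and below therefore describe the lists and test nothing about them. Of 15051 genes tested, 568 rose (3.77% of those tested) and 833 fell (5.53%), at an adjusted p under 0.05. The rises included 381 of at least 2-fold, 164 of at least 4-fold and 68 of at least 8-fold. The falls included 593, 308 and 174 at the same limits. The median log2 fold change was 1.36 for genes that rose, -1.48 for genes that fell and 0.05 for all genes tested. Across the tested genes 25.8% had non-overlapping groups, and so did 561 rises and 831 falls. Genes that fell went from a summed mean of 37301 to 17733 CPM, and genes that rose from 9846 to 20509 CPM. Protein-coding genes made up 90.1% of the rises and 91.9% of the falls, against 78.2% of genes tested.

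Without the first doxycycline library, 836 genes rose (5.35% of 15614 tested) and 900 fell (5.76%). Of the calls with all libraries, 494 rises and 697 falls were called in both fits and 210 genes were not called again or not tested, with 0 called in opposite directions. When the first entinostat library without doxycycline was left out as well, 2697 genes rose and 2149 fell. The 2 DMSO groups fitted alone without the first doxycycline library gave 2941 rises and 2937 falls. With the replicate numbers as a block, 887 genes rose and 1146 fell, among them 567 of the rises above and 829 of the falls.

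**Figure D2:**
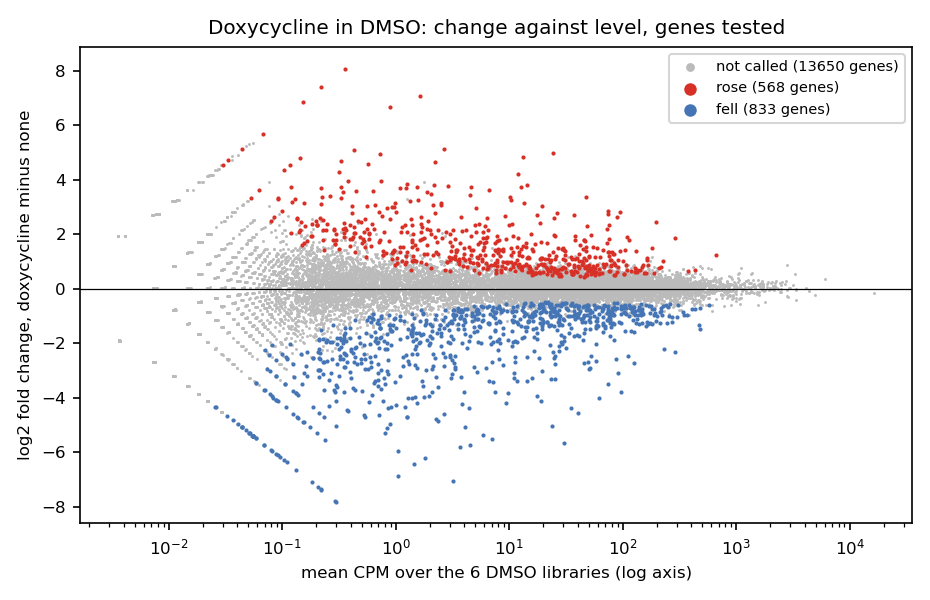
Log2 fold change with doxycycline in DMSO against mean CPM over the 6 libraries (log axis) for the 15051 genes tested. Points are genes, coloured by call: 568 rose, 833 fell and 13650 were not called; the diagonal lines at low levels are genes of a few counts in 1 group.

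The heme pathway was the erythroid group with the largest share of called members. Of 16 genes of heme synthesis and its mitochondrial carriers, 9 rose and 0 fell, with a median of 0.82 (11 rose without the first doxycycline library), and the doxycycline libraries were all higher in 15 of the 16. Over all genes tested they were all higher in 1732 of 15051. Alas2, the erythroid form of the enzyme that starts heme synthesis, measured 4.76, 5.95 and 7.79 CPM in the untreated libraries and 14.8, 24.6 and 34.8 CPM in the treated (log2 fold change 2.005 ± 0.331, adjusted p = 0.00156). Every treated library lay above every untreated one. Uros, which closes the porphyrin ring, was at 36.6, 30.6 and 33.6 CPM and then at 168, 94.9 and 92.2 CPM (1.82 ± 0.30, adjusted p = 0.00154), and the first doxycycline library was the highest. Ppox (1.20 ± 0.18) and Fech (0.79 ± 0.17), the last 2 enzymes of the path, also rose. So did the mitochondrial iron importer Slc25a37 (1.39 ± 0.21), its partner transporter Abcb10 (0.86 ± 0.21), the mitochondrial protein gene Fam210b (1.49 ± 0.21) and the porphyrin exporter Abcg2 (1.27 ± 0.16). Cpox measured 824 to 832 CPM in the untreated libraries and 1008, 1583 and 1601 CPM in the treated and did not pass (adjusted p = 0.0700). It passed without the first doxycycline library (0.0135).

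Of 15 genes of the spectrin and actin network under the red cell membrane, 7 rose and 0 fell (median 0.69; 8 and 0 without the first doxycycline library). Epb42, which ties the network to the anion exchanger, measured 1.24, 2.43 and 1.66 CPM in the untreated libraries and 8.06, 21.1 and 26.3 CPM in the treated (3.38 ± 0.47, adjusted p = 0.000384). Dmtn, the actin-bundling dematin, went from 0.539, 0.847 and 0.873 CPM to 2.41, 8.77 and 13.6 CPM (3.45 ± 0.59). Add2, the beta chain of adducin, went from 13.78, 20.01 and 20.40 CPM to 55.9, 159 and 174 CPM (2.84 ± 0.39). The groups did not overlap in these 3 genes, and in each the first doxycycline library was the lowest of its group. Over the list, that library lay at a median of -1.29 on the log2 scale from its group mates. Sptb, beta spectrin, rose by 1.86 ± 0.40, tropomodulin Tmod1 by 1.94 ± 0.40, Mpp1 by 0.69 ± 0.16 and tropomyosin Tpm1 by 0.68 ± 0.17. Ank1, ankyrin, measured 90.7, 135 and 110 CPM in the untreated libraries and 110, 309 and 334 CPM in the treated. Its groups overlapped through the first doxycycline library, and Ank1 did not pass (log2 fold change 1.16, adjusted p = 0.110) but passed with the replicate block and all libraries (1.03, 0.00961) and without that library (1.52, 0.00798).

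For blood groups and the red cell surface, 22 genes were tested, of which 10 rose and 1 fell (median 0.65; 13 and 0 without the first doxycycline library). Slc4a1, the anion exchanger band 3, measured 1.28, 1.19 and 1.24 CPM in the untreated libraries and 6.39, 27.8 and 33.8 CPM in the treated (4.19 ± 0.63, adjusted p = 0.000759). Every treated library was higher, and the first was farthest from its mates. Aqp1, the water channel that carries the Colton antigen, went from 52.99, 73.61 and 56.23 CPM to 211, 429 and 350 CPM (2.44 ± 0.28). Rhd, the Rh antigen gene, went from 43.0, 50.1 and 43.9 CPM to 131, 204 and 179 CPM (1.91 ± 0.20), and Kel, the Kell endopeptidase, from 19.2 to 21.6 CPM up to 65.9 to 74.0 CPM (1.79 ± 0.16). Ackr1, Gypc, Art4, Icam4 and Cd59a also rose. Of these Ackr1 and Art4 were called in all 24 alternative settings, while Gypc lost its call in 14, Icam4 in 12 and Cd59a in 6. Slc2a1, the glucose transporter GLUT1, went against them, from 13.4, 15.5 and 14.8 CPM down to 4.81, 9.40 and 7.54 CPM (-1.01 ± 0.26, adjusted p = 0.0279), and was not called without the first doxycycline library (0.0537).

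Globin RNA behaved less uniformly. Of 7 globin genes tested, 2 rose and 1 fell, with a median of 0.40, beside 3.77% and 5.53% of all genes tested. Hba-a1, an adult alpha globin gene, measured 11.3, 21.9 and 23.9 CPM in the untreated libraries and 73.1, 111 and 200 CPM in the treated (2.75 ± 0.47, adjusted p = 0.00205). Its near-identical copy Hba-a2 held at most 1 count in any library, so the 2 are read together as alpha globin. The beta globin genes Hbb-bt (118, 120 and 214 CPM, then 214, 172 and 242 CPM; adjusted p = 0.530) and Hbb-bs (116, 148 and 270 CPM, then 215, 187 and 304 CPM; 0.685) did not pass, and their groups overlapped. These copies also share reads. Hbq1b, a theta globin gene, rose from 0.0899, 0.217 and 0.218 CPM to 1.25, 1.90 and 3.75 CPM, and Hbb-bh2 fell from 1.11 to 1.15 CPM down to 0.108 to 0.366 CPM.

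Among 20 erythroid transcription factors 2 rose and 0 fell, with a median of 0.26, beside 3.77% and 5.53% of all genes tested. In this list 8 rose without the first doxycycline library, and with the replicate block 5 rose and 1 fell. Sox6, which represses embryonic globin, measured 5.26, 8.21 and 7.77 CPM in the untreated libraries and 18.1, 51.0 and 57.7 CPM in the treated (2.58 ± 0.36, adjusted p = 0.000416). Tal1, a core erythroid factor, went from 290, 293 and 294 CPM to 376, 497 and 513 CPM (0.66 ± 0.17, adjusted p = 0.0255), a call that ended in 8 of 24 alternative settings, among them no filter (0.105) and the 2 DMSO groups alone (0.0516). Neither gene's groups overlapped. Gata1 measured 282, 309 and 275 CPM in the untreated libraries and 243, 354 and 321 CPM in the treated (0.08 ± 0.18, adjusted p = 0.881), with overlapping groups. Klf1, the activator of adult beta globin, went from 109, 114 and 109 CPM to 116, 163 and 210 CPM (0.56 ± 0.23, adjusted p = 0.172), and passed without the first doxycycline library (0.75, 0.0284). Gfi1b, a repressor in erythroid cells, stood at 0.29 ± 0.22 (adjusted p = 0.571). Of 14 genes of iron uptake and storage 0 rose and 0 fell (1 rose with the replicate block). The transferrin receptor gene Tfrc was the nearest to the heme genes in role, at 2859, 2661 and 2459 CPM without doxycycline and 3526, 4161 and 3985 CPM with it (adjusted p = 0.279).

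Among 20 genes of late erythroid enzymes and clearance, 7 rose and 1 fell (median 0.52; 9 and 1 without the first doxycycline library). Trim10, an erythroid ubiquitin ligase gene, went from 31.0, 35.7 and 37.9 CPM to 81.9, 126 and 125 CPM (1.67 ± 0.19). Arhgdig rose by 2.35 ± 0.21, Cited4 by 1.92 ± 0.25, the membrane protein gene Tspo2 by 1.04 ± 0.19 and Bpgm, the enzyme that makes bisphosphoglycerate, by 0.53 ± 0.12. Cat, catalase, went the other way, from 134, 148 and 167 CPM to 18.1, 29.4 and 27.3 CPM (-2.59 ± 0.28, adjusted p = 6.14e-05), with no overlap. Pklr, the red cell pyruvate kinase, rose from 26.9, 30.5 and 20.6 CPM to 75.6, 164 and 119 CPM (2.20 ± 0.30), while 6 of the 23 glycolysis genes fell (4 without the first doxycycline library). Those were Pgk1, Pgam1, Aldoc, Pfkfb3, Slc2a1 and Pkm, the pyruvate kinase of other tissues, which measured 285, 404 and 350 CPM in the untreated libraries and 71.3, 196 and 172 CPM in the treated (-1.24 ± 0.36, adjusted p = 0.0467; 0.0647 without the first doxycycline library).

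**Figure D3:**
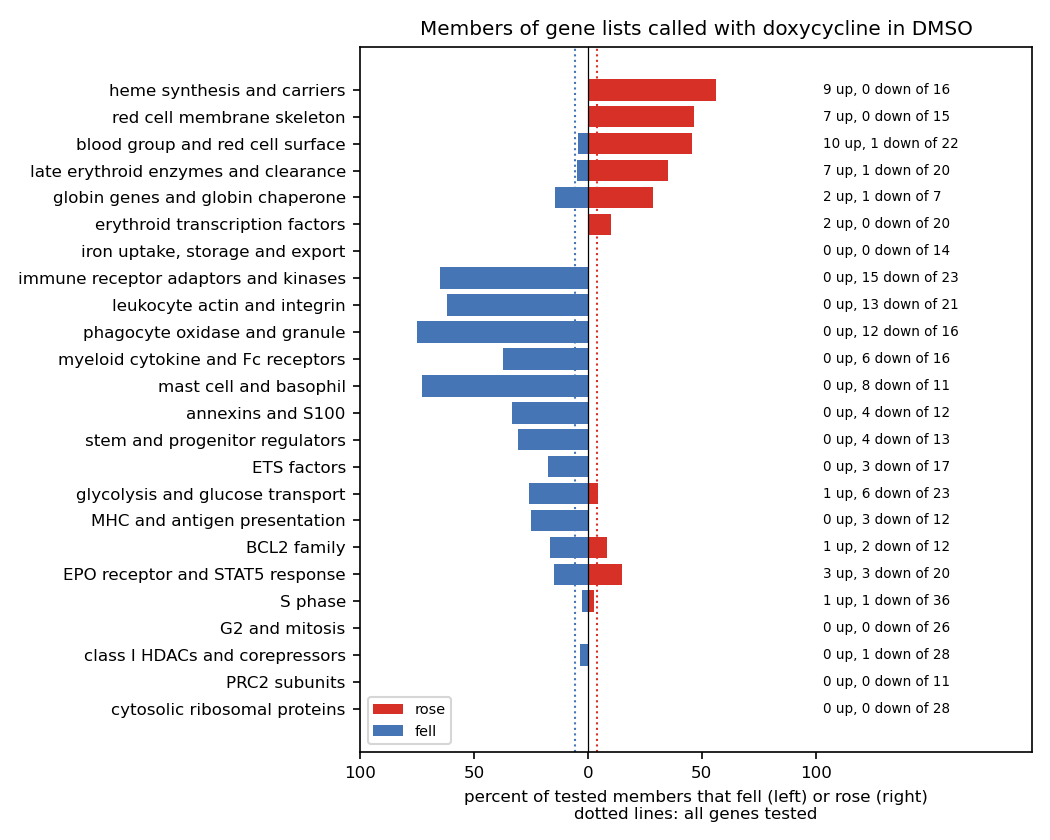
Percent of tested members of 24 gene lists that fell (bars to the left) or rose (bars to the right) with doxycycline in DMSO, with the counts at the right edge; dotted lines mark 3.77% and 5.53%, the shares of all genes tested. Red cell lists lie mainly to the right, except the iron list, which has no bar. Globin genes have a bar on both sides, and leukocyte lists lie to the left.

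The genes that fell were led by leukocyte genes. Of 23 adaptors and kinases of immune receptors tested, 0 rose and 15 fell, with a median of -1.04 (0 and 12 without the first doxycycline library). Lcp2, the adaptor SLP-76, measured 50.4, 60.9 and 68.1 CPM in the untreated libraries and 1.06, 0.994 and 1.49 CPM in the treated (-5.66 ± 0.29, adjusted p = 4.86e-07), a 50.5-fold lower level. Plcb2, a phospholipase C of G-protein signalling, went from 9.62, 13.7 and 18.1 CPM to 0.147, 0.324 and 0.409 CPM (-5.52 ± 0.43). Dok2, an inhibitory adaptor, went from 14.3, 19.6 and 26.3 CPM to 1.96, 1.75 and 2.43 CPM (-3.29 ± 0.27). In each every treated library lay far below the lowest untreated one. Falls were smaller for the kinases Btk (-0.82 ± 0.21) and Lyn (-0.99 ± 0.26), the exchange factor Vav1 (-1.09 ± 0.28) and the phosphatase Ptpn6 (-1.04 ± 0.18). Btk (adjusted p = 0.0550) and Lyn (0.0524) were not called without the first doxycycline library. Tyrobp, the adaptor DAP12, and Rasgrp4, a Ras activator, had 28 and 82 counts in the 3 untreated libraries together and 0 in the treated ones. With 3 counts over the group as the floor that 0 allows, their levels were at least 9.13-fold and at least 26.7-fold lower.

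Of 21 leukocyte actin and integrin genes, 13 fell and 0 rose (median -1.28; 12 and 0 without the first doxycycline library). Coro1a, the actin-binding coronin of leukocytes, measured 136, 193 and 216 CPM in the untreated libraries and 10.32, 13.20 and 15.98 CPM in the treated (-3.79 ± 0.28, adjusted p = 3.59e-06). Dock2, which activates Rac in migrating leukocytes, went from 102, 124 and 120 CPM to 5.38, 5.47 and 10.6 CPM (-4.01 ± 0.38). Lcp1, leukocyte plastin, went from 154, 146 and 183 CPM to 17.6, 17.3 and 22.3 CPM (-3.08 ± 0.24). The untreated range was narrow beside the change in all 3 genes. Arpc1b, an Arp2/3 subunit, went from 459, 481 and 492 CPM to 87.4, 102.58 and 98.4 CPM (-2.31 ± 0.19), and Arhgdib, a GTPase regulator of blood cells, from 732, 698 and 701 CPM to 322, 222 and 217 CPM (-1.49 ± 0.22). The integrin chains Itgb2 (-2.97 ± 0.29) and Itgal (-3.40 ± 0.53), which pair as LFA-1, both fell. Myo1g, a myosin of leukocyte membranes, gave 202, 329 and 339 counts without doxycycline and 1, 3 and 2 counts with it, a ratio of 142 with a 95% counting interval of 64.9 to 388. Ccdc88b, a leukocyte coiled-coil protein gene, went from 43.8, 47.2 and 46.4 CPM to 0.860, 1.60 and 1.70 CPM (-5.04 ± 0.35).

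Of 16 genes of the phagocyte oxidase, granules and related membrane proteins, 12 fell and 0 rose (median -2.54; also 12 and 0 without the first doxycycline library). Cyba, a subunit of the oxidase, went from 47.1, 35.6 and 45.1 CPM to 7.47, 2.77 and 2.76 CPM (-3.30 ± 0.40). The oxidase genes Cybb and Ncf1 had at most 3 counts in any library and were not tested. On a separate list of 13 neutrophil granule genes 2 were tested, of which 0 rose and 0 fell. Laptm5, a lysosomal protein gene of blood cells, went from 197, 235 and 218 CPM to 18.8, 40.8 and 38.6 CPM (-2.73 ± 0.35). Alox5ap, the helper of 5-lipoxygenase, went from 12.31, 13.42 and 15.995 CPM to 1.20, 0.886 and 0.948 CPM (-3.78 ± 0.21), and Alox5 itself fell by 1.28 ± 0.30 on the log2 scale. Lgals1, galectin 1, went from 75.7, 77.9 and 77.4 CPM to 5.16, 2.16 and 2.58 CPM (-4.55 ± 0.35). Rnase6, an antimicrobial ribonuclease, and Tmem176b fell by 5.37 ± 0.38 and 5.09 ± 0.40 on the log2 scale, with a highest treated value of 0.442 CPM in Rnase6. In 8 genes that fell, among them Tespa1, Scin, Plcb2, Rnase6, Tmem176b and Rgs1, all untreated libraries were above 5 CPM and all treated ones under 1 CPM. The reverse held for 0 genes that rose.

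Of 16 myeloid cytokine and Fc receptor genes tested, 6 fell and 0 rose (median -0.65), and the number without the first doxycycline library was also 6. Il1rl1, the interleukin 33 receptor, measured 381, 359 and 367 CPM in the untreated libraries and 231, 245 and 262 CPM in the treated (-0.58 ± 0.17, adjusted p = 0.0429) and was not called without the first doxycycline library (0.0799). The Fc receptor gene Fcgr1 had 143 counts in all without doxycycline and 5 with it (ratio 28.0, 95% counting interval 11.7 to 87.5). Csf1r, the macrophage growth factor receptor, was low throughout, at 0.0449, 0.0434 and 0.131 CPM in the untreated libraries and 0.295, 0.173 and 0.194 CPM in the treated. Every treated library was higher, against the falls of the list, but Csf1r did not pass. The list for mast cells and basophils held 11 tested genes, of which 8 fell and 0 rose (median -2.26; 7 and 0 without the first doxycycline library). Srgn, serglycin, went from 394, 347 and 355 CPM to 264, 134 and 132 CPM (-1.05 ± 0.29). Granzyme Gzmb went from 0.989, 1.15 and 2.29 CPM to 0.0737, 0.108 and 0.0646 CPM (-4.12 ± 0.56). Mcpt2, a mast cell protease gene with near-identical relatives, went from 32.3, 18.3 and 14.2 CPM to 4.67, 0.713 and 0.819 CPM (-3.40 ± 0.72).

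Markers of macrophages, neutrophils, lymphocytes and mast cells were low, and those of megakaryocytes were not. Of 8 macrophage markers, 7 were in the table, 6 of those were under 1 CPM in all 6 libraries, and their sum was 2.75 to 3.11 CPM without doxycycline and 1.66 to 2.48 CPM with it, nearly all of it Cd68. Mrc1 was at 0 throughout. Neutrophil markers summed to 0.152 to 0.337 CPM and 0.0432 to 0.215 CPM, with Elane at 0 in all libraries. B cell markers summed to 0.472 to 0.524 and 0.540 to 0.909 CPM, with Pax5 at 0. T and NK cell markers summed to 0.135 CPM or less in every library. Mast cell and basophil markers, of which 5 of 7 were in the table, summed to 4.23 to 8.58 CPM without doxycycline and 0.905 to 7.71 CPM with it. In the first doxycycline library most of that was Fcer1a, at 7.32 CPM against 0.799 and 0.840 CPM in its mates. Megakaryocyte markers, 6 of 7 in the table, summed to 32.1 to 68.7 CPM without doxycycline and 31.0 to 46.8 CPM with it, mostly Pf4 and Itga2b, whose groups overlapped and which did not pass (adjusted p = 0.845 and 0.380). The part of such cells in the falls of leukocyte and mast cell genes was not tested, and in bulk RNA fewer cells of a type and less RNA per cell cannot be told apart.

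**Figure D4:**
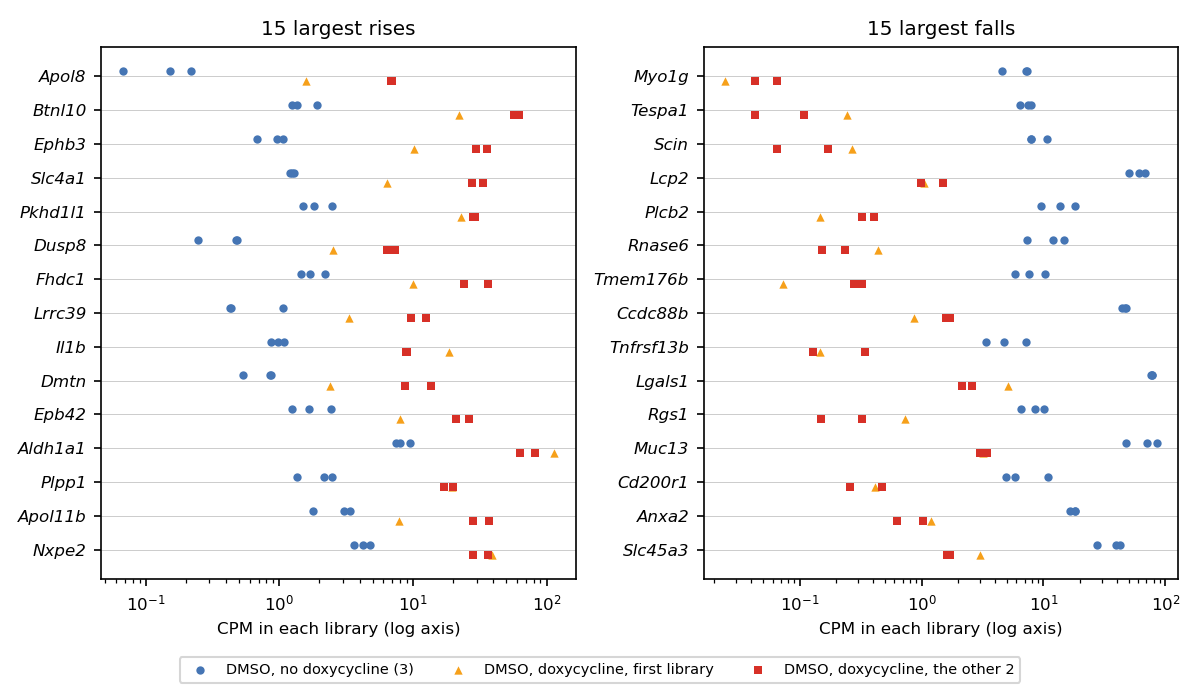
CPM in each of the 6 libraries (log axis) for the 15 largest rises and 15 largest falls among called genes of at least 5 CPM in the higher group with no overlap between groups. Circles are untreated libraries, the triangle the first doxycycline library and squares the other 2; that library is the lowest of its group for Slc4a1, Dmtn and Epb42 and the highest for Il1b, Aldh1a1 and Lgals1.

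The starts of genes were searched for 3 short motifs. The windows were those of RefSeq on GRCm38.p6, 250 bases before to 50 after each annotated start, and 10201 of the genes tested had at least 1. GAGGAAGT, a strong form of the PU.1 site, lay on either strand in 7.60% of 842 windows of genes that fell (95% Wilson interval 6.00 to 9.59). It lay in 1.495% of 602 windows of genes that rose (0.789 to 2.82), in 3.19% of 12911 windows of all genes tested and in 3.20% of all 32851 windows. The site of GATA factors, searched as AGATAA, lay in 9.15% of windows of genes that fell, 9.30% of those of genes that rose, 7.41% of those of genes tested and 11.2% of all. The KLF box CCNCNCCC lay in 65.8%, 66.6%, 66.1% and 49.5%. In a shorter window of 100 bases before to 50 after the start, the PU.1 letters lay in 4.99% of windows of genes that fell, 0.997% for genes that rose and 1.82% for genes tested. Windows of 1 gene can overlap, so they are not independent, and a match describes letters and shows no binding.

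Among the genes named for the size of their change, 19 fallen genes had a window and 1 of them, Ccdc88b, held the PU.1 letters. Of 55 further fallen list members with a window, 4 held them. The starts of these 5 genes are printed from 130 bases before to 30 after the start, 5′ to 3′ on the gene's strand, to show where the letters lie; capitals mark GAGGAAGT or its reverse complement. Ccdc88b follows the rule for named genes, and the other 4 were chosen after their values were seen.
Ccdc88b (chr19:6858182-6858341, minus strand): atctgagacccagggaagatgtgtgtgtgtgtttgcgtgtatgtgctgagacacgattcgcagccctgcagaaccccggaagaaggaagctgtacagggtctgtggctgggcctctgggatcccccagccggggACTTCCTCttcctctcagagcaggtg
Pirb (chr7:3720353-3720512, minus strand): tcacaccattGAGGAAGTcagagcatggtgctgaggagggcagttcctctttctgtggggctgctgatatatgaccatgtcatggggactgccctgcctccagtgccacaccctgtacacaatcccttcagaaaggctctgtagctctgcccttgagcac
Cd53 (chr3:106790120-106790279, minus strand): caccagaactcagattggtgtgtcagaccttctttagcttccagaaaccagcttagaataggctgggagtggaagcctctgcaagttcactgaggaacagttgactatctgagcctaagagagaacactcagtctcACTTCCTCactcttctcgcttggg
Arpc1b (chr5:145114126-145114285, plus strand): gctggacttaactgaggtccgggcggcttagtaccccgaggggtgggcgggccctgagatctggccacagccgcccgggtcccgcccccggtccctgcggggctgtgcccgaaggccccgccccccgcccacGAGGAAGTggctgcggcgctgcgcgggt
Vav1 (chr17:57278970-57279129, plus strand): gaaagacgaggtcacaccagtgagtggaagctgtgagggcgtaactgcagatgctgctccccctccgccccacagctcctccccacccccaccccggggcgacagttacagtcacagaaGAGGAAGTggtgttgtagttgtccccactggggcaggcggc

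Counted from the annotated start, the letters begin at base 5 of Ccdc88b, base 7 of Cd53 and base 3 of Arpc1b. In Vav1 they begin at base -11 and in Pirb at base -120. The change was -5.04 for Ccdc88b, -2.31 for Arpc1b and -1.09 for Vav1, as given above. Pirb, an inhibitory receptor gene, had 62 counts without doxycycline and 2 with it (ratio 30.3, 95% counting interval 8.05 to 256). Cd53, a tetraspanin gene, measured 0.4719, 0.6299 and 1.004 CPM in the untreated libraries and 0.246, 0.0648 and 0.108 CPM in the treated (-2.34 ± 0.47). Of the 18 risen genes named for their size that had a window, 0 held the PU.1 letters and 7 held the GATA letters, and of 42 further risen list members 1, Abcg2, held the PU.1 letters and 10 the GATA letters. Among fallen genes the GATA letters lay in 2 of 19 named for their size and 10 of 55 further list members. These PU.1 and GATA counts are per gene, and a gene can have several windows. The 18 risen genes had 23 windows and the 42 had 54. The counts cannot be set against the shares of windows given above, and no share per gene over all genes tested is given. The start of Rhd shows 1 match to the GATA letters in capitals, at base -43.
Rhd (chr4:134864406-134864565, plus strand): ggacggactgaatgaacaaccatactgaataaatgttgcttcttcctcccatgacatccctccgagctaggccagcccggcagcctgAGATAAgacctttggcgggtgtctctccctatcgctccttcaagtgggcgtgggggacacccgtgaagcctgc

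Several of the largest rises lay outside the red cell lists. Ephb3, an ephrin receptor, measured 0.966, 1.06 and 0.676 CPM in the untreated libraries and 10.2, 29.8 and 36.1 CPM in the treated. Aldh1a1, which makes retinoic acid, went from 9.57, 7.47 and 7.99 CPM to 114, 81.7 and 63.5 CPM (3.37 ± 0.23, adjusted p = 1.67e-06). Il1b, interleukin 1 beta, went from 1.08, 0.977 and 0.873 CPM to 18.6, 9.01 and 8.90 CPM (3.63 ± 0.44). It rose although most leukocyte genes named here fell, and its antisense neighbour Il1bos, named after its values were seen, also passed (adjusted p = 0.0120); without strand their reads cannot be told apart. Apol8 gave 3, 7 and 10 counts without doxycycline and 65, 319 and 322 with it, and Apol11b rose by 3.15 ± 0.51, both from a cluster of similar apolipoprotein L genes that can share reads. Dusp8, a MAP kinase phosphatase, rose by 3.75 ± 0.43 and the lipid phosphatase Plpp1 by 3.24 ± 0.24. Abundant genes that rose included St3gal6, a sialyltransferase, from 21.2, 23.2 and 26.8 CPM to 241, 127 and 125 CPM (2.79 ± 0.35), and Hebp1, a heme-binding protein gene, from 22.5 to 30.5 CPM up to 110 to 214 CPM (2.61 ± 0.33). In both the first doxycycline library was the highest.

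In the BCL2 family 1 gene of 12 tested rose and 2 fell (3 rose with the replicate block), beside 3.77% and 5.53% of all genes tested. Without the first doxycycline library 2 rose and 1 fell. Bcl2l11, the gene of the death-promoting protein BIM, measured 9.64, 9.04 and 8.27 CPM in the untreated libraries and 23.7, 31.6 and 32.6 CPM in the treated (1.70 ± 0.21, adjusted p = 0.000187). The survival genes Mcl1 (281, 283 and 310 CPM, then 152, 149 and 144 CPM; -0.97 ± 0.16) and Bcl2l1 (18.7, 23.0 and 24.9 CPM, then 9.14, 14.5 and 13.8 CPM; -0.83 ± 0.22) fell. Bcl2l1 was not called without the first doxycycline library (adjusted p = 0.0575). The other 9 of the 12 BCL2 family genes tested did not pass. Of 20 genes of the EPO receptor and its STAT5 response, 3 rose and 3 fell, beside the same shares of all genes tested. The median was 0.10, and 3 rose and 1 fell without the first doxycycline library. Epor, the receptor, went from 104.8, 103.1 and 96.73 CPM to 143, 162 and 161 CPM (0.61 ± 0.13, adjusted p = 0.00850), and erythroferrone, Erfe, from 4.95 to 5.64 CPM up to 11.1 to 23.6 CPM. Id1 went from 12.16, 16.44 and 17.98 CPM to 2.11, 1.79 and 2.71 CPM (-2.81 ± 0.29).

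Calls among cell cycle genes are set beside those of all genes tested, of which 3.77% rose and 5.53% fell. Of 36 S phase genes 1 rose and 1 fell (median 0.25), and of 26 genes of G2 and mitosis 0 and 0 (median 0.14). Without the first doxycycline library the counts were 2 and 1, and 0 and 0. The log2 fold change was above 0 in 34 of the 36 and 22 of the 26, against 8378 of 15051 genes tested. In the first experiment, described below, 8 of the 36 and 1 of the 26 rose, against 5.26% of all genes tested there. Ccne1, cyclin E1, went from 98.2, 96.9 and 92.3 CPM to 154, 164 and 166 CPM (0.75 ± 0.13, adjusted p = 0.00215). Cdkn2c, the cyclin kinase inhibitor p18, went from 35.4, 36.5 and 35.8 CPM to 49.02, 70.15 and 74.98 CPM (0.85 ± 0.17). Myc measured 176, 255 and 208 CPM in the untreated libraries and 146, 260 and 230 CPM in the treated (-0.01 ± 0.25, adjusted p = 1). Myb, which keeps progenitors immature, measured 276, 278 and 254 CPM in the untreated libraries and 170, 196 and 182 CPM in the treated; its groups did not overlap but the test did not pass (-0.56 ± 0.19, adjusted p = 0.101). Myb was called in 6 of 24 alternative settings, among them DESeq2 (0.0377) and the 2 DMSO groups alone (0.0364).

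Regulators of stem cells and progenitors numbered 13, of which 4 fell and 0 rose (median -0.11; 2 fell without the first doxycycline library). Over all genes tested 5.53% fell and 3.77% rose, which also stands beside the lists that follow here. A single call in a list of this size is no result about that list. Hhex went from 28.9, 26.3 and 28.8 CPM to 14.2, 10.1 and 11.1 CPM (-1.25 ± 0.16) and Ikzf2, the Ikaros relative Helios, from 5.84, 6.60 and 8.20 CPM to 2.09, 1.77 and 2.33 CPM (-1.74 ± 0.21). Meis1 (adjusted p = 0.0806) and Lyl1 (0.0676) lost their calls without that library. Of 17 other ETS family genes 3 fell, Fli1 (-1.19 ± 0.31), Elf1 (-0.97 ± 0.23) and Etv4 (-1.74 ± 0.38), and 0 rose (3 fell and 1 rose without the first doxycycline library). Of 11 partner factors of PU.1 in myeloid cells 1 fell (2 with the replicate block), Irf5, from 3.30, 3.43 and 4.89 CPM to 0.0982, 0.367 and 0.345 CPM (-3.81 ± 0.42). Among 12 annexin and S100 genes 4 fell and 0 rose (5 fell without the first doxycycline library), led by Anxa2, from 16.61, 18.18 and 18.002 CPM to 1.20, 1.04 and 0.625 CPM (-4.21 ± 0.22).

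The deacetylases that entinostat inhibits were among the chromatin repression genes tested. Of 28 class I deacetylase and corepressor genes 0 rose and 1 fell, beside 3.77% and 5.53% of all genes tested. Without the first doxycycline library 2 rose and 1 fell. The fall with all libraries was that of the methyl-DNA reader Mbd2, from 178, 182 and 171 CPM to 97.4, 108 and 99.9 CPM (-0.80 ± 0.16, adjusted p = 0.00578). Hdac1 measured 338, 338 and 339 CPM in the untreated libraries and 327, 294 and 278 CPM in the treated (-0.17 ± 0.16, adjusted p = 0.633), and Hdac2 (-0.05 ± 0.16) and Hdac3 (-0.08 ± 0.13) also did not pass. Of 11 subunits of Polycomb repressive complex 2, 0 rose and 0 fell by edgeR, with Ezh2 at 0.22 ± 0.17, Suz12 at 0.44 ± 0.25, Eed at -0.04 ± 0.22 and Ezh1 at 0.14 ± 0.25. This depended on the libraries: without the first doxycycline library in DMSO and the first untreated entinostat library 4 rose, among them Suz12 (0.65, adjusted p = 0.000722) and Ezh2 (0.32, 0.0296), and 1 fell. In the DMSO groups alone without the first doxycycline library 5 rose and 3 fell, Eed among the falls (-0.30, 0.0145), and Hdac1 fell as well (-0.28, 0.0120). Of 15478 genes tested in the former fit 2697 rose and 2149 fell, and of 12912 in the latter 2941 and 2937. With calls so common among all genes, those among the subunits are no result about the subunits. Of 28 ribosomal protein genes 0 passed; their median was 0.11 with all libraries and -0.41 without the first doxycycline library, which held these short transcripts at a median of 1.13 above its mates.

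The first experiment of the series gave doxycycline for 48 h, with neither DMSO nor entinostat named in its labels, in 6 libraries of their own that share no sample with the DMSO groups. There 727 genes rose (5.26% of 13811 tested) and 1154 fell (8.36%). Of the genes called in DMSO and tested there, 384 of 530 rises and 613 of 766 falls were called in the same direction, and 0 in the opposite one. Among the named genes, Btnl10 had a log2 fold change of 4.97 ± 0.38 in DMSO and 3.88 in the first experiment, Myo1g -7.06 ± 0.54 and -5.09, and Tal1 0.66 and 0.62. Hba-a1 (1.28, adjusted p = 0.268) and Alas2 (1.18, 0.336) did not pass there. The named genes were chosen for a large change in DMSO, so smaller values there are a description only. Spi1 itself stood at -1.73 in that experiment.

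**Figure D5:**
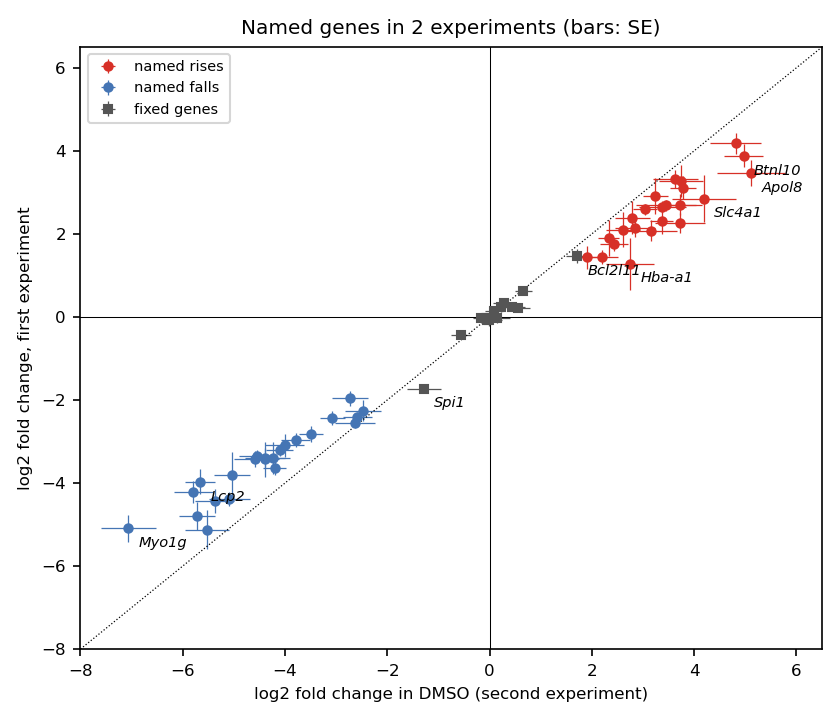
Log2 fold change with doxycycline in the first experiment against that in DMSO for the named genes, with standard errors and a dotted line of equal change. All named rises lie above 0 and all named falls below 0 on both axes; most lie nearer to 0 in the first experiment, and Spi1 lies farther from 0 there.

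The effect of doxycycline differed between DMSO and entinostat for 41 genes (0.272% of those tested), 16 that rose and 25 that fell in DMSO. In all 41 the change in entinostat was smaller or of the other sign. Tespa1, a lymphocyte signalling gene, measured 6.38, 7.91 and 7.53 CPM in the untreated libraries and 0.246, 0.0432 and 0.108 CPM in the treated in DMSO (-5.79 ± 0.38), and at a log2 fold change of -1.66 in entinostat (difference 4.14 ± 0.47, adjusted p = 0.00493). Acap1, which acts in receptor recycling, went from 92.4, 84.9 and 89.4 CPM to 15.2, 15.3 and 17.3 CPM in DMSO (-2.48) and had -0.65 in entinostat. Fads3, a fatty acid desaturase family gene, went from 10.9, 10.4 and 8.47 CPM to 46.6, 72.2 and 73.9 CPM in DMSO (2.70) and had 0.50 in entinostat. This number of genes rests on single libraries. It was 9 without the second doxycycline library in entinostat, 2637 without the first doxycycline library in DMSO and 3061 without the first untreated library in entinostat, and 177 with the replicate block.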

How the data were processed

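RNA was sequenced as polyA libraries made with a kit that does not mark strand. The values are raw read counts per gene as deposited by the authors; the tools STAR, DESeq2 and bcl2fastq (2.17.1.14) and the build mm10 are named per the submitters' processing notes, and the counter and annotation are not given in the sources used here. The labels call the 3 libraries of each group biological replicates.

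Of 26903 genes in the table, 15051 passed edgeR's filterByExpr. Counts were TMM-scaled and tested with edgeR 4.0.16 (R 4.3.3), quasi-likelihood, on group means of the 12 libraries of the second experiment, with Benjamini-Hochberg adjustment over all genes tested and a threshold of 0.05. The first experiment was fitted alone. The procedure was tested on simulated counts in which chosen genes were changed by known folds. That simulation held no outlying library, length trend or replicate pairing, so it says nothing about their effect on the calls here. With totals of 46.5 to 48.9 M counts, counting error is small beside the spread between libraries except for genes of few counts. Counting intervals cover counting error only.

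Members and gene lists were chosen with earlier results of these data known. Named are 15 fixed regulators, the 15 largest rises and falls of at least 5 CPM without overlap between groups, the 8 largest of each at 100 CPM or more, list members with the smallest adjusted p or against their list, the 6 clearest differences between DMSO and entinostat, and the 6 genes farthest apart in the first doxycycline library. Not all of them are printed, and some list members are not reported here.

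Deviations from the group means in DMSO correlated across genes at 0.334, 0.267 and 0.102 for libraries with the same replicate number. For different numbers the range was -0.309 to 0.214, which holds the third value, so the pairing is unclear there. The numbers were still taken to pair libraries, from the data and not from the labels. The main fit leaves the pairing out, and the replicate block is an alternative to it. Gene lengths are from GENCODE M21 and promoter windows from RefSeq (GRCm38.p6). In 60.0% of 25174 windows whose gene is in GENCODE M21, the bases after the start were found at a transcript start there. The alternatives were other scalings, filters and tools (DESeq2 1.42.0, limma-voom 3.58.1), a replicate block, the DMSO groups alone, each library left out, and 2 added after the data were seen: removal of a length and GC trend, and the DMSO groups alone without the first doxycycline library.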

Additional observations from a re-analysis of the deposited data

Results flagged for a closer look

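For 18 of the 137 genes named here, against 0.272% of all genes tested, the effect of doxycycline differed between entinostat and DMSO by the interaction test of the edgeR fit (adjusted p 0.00493 to 0.0391). Values are the log2 effect in entinostat minus that in DMSO. Of the 10 that fell in DMSO, Tespa1 differed by 4.14, Lgals1 by 3.49, Rnase6 by 3.16, Scin by 3.13, Cd200r1 by 3.02, Slc45a3 by 2.66, Smagp by 2.20, Tec by 2.14, Acap1 by 1.83 and Alox5ap by 1.66. Of the 8 that rose in DMSO, Ephb3 differed by -3.54, Btnl10 by -3.40, Fhdc1 by -3.08, Plpp1 by -2.57, Fads3 by -2.20, Cited4 by -1.99, Pkhd1l1 by -1.76 and Rhd by -1.58. Most of these genes were named for a large change in DMSO, and 6 for this difference, so neither their number nor the sign, opposite to the change in DMSO in each, is a result about the named genes.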

How the results depend on the processing

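With each of the 12 libraries left out in turn, 325 to 836 genes rose and 536 to 991 fell, 268 to 496 rose and 461 to 629 fell at least 2-fold, and Spi1 measured -1.53 to -1.03. Rises numbered 325, 337 and 326 without the first, the second or the third untreated DMSO library and 359 without the third doxycycline library, and falls 536 without the third untreated and 547 without the second doxycycline library. Rises were 870 with DESeq2, 887 with the replicate block, 994 with the length and GC trend removed, 2697 without the first doxycycline DMSO and first untreated entinostat libraries, and 2941 in the DMSO groups alone without the first doxycycline library; falls were 2149 and 2937 in the last 2, and 590 genes rose at least 2-fold without the 2 first libraries. Genes that differed between DMSO and entinostat numbered 206 with no filter, 235 with DESeq2, 177 with the replicate block, 96 with the trend removed, 7972 without the 2 first libraries and 9 to 3061 with each library left out. The cause was not tested. The pairing by replicate number left 567 of 568 rises and 829 of 833 falls called in the fit of 12 libraries, and 465 and 700 with the block in the 2 DMSO groups alone, where Tal1, Gypc, Icam4, Bpgm and Il1rl1 lost their calls; in the fit of 12 libraries the block changed no call of a gene named here but that of Ank1. Pkm lost its call in 13 settings, Il1rl1 in 11, Meis1 in 10, Srgn in 9, Lyl1 in 8 and Bpgm in 7. No gene called with all libraries was called in the opposite direction under any setting, and 98 of 137 genes named here kept their call, or lack of one, in each of up to 24 settings that tested them. The DMSO groups fitted alone give no difference from entinostat.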
